A study of Sus scrofa with 8 samples.

Results

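The genes described here encode the enzymes and transporters of glycolysis, the pathway that splits glucose into pyruvate, and the genes of the cellular response to low oxygen. A list of 41 such genes was looked up by symbol in the deposited count table, and 38 were found among its 22366 features, 2 of them (LDHA and ALDOA) through an Ensembl identifier that a gene name table pairs with the symbol. SLC2A1, SLC2A3 and VHL were not matched and are not analysed here. RNA of the pig (Sus scrofa) was sequenced in 8 libraries. The lymphoma cells had been grown in culture as clones, 4 of them from a tumour of the subileac lymph node and 2 from a tumour of the spleen, and each was taken through 4 rounds of limiting dilution after manual dissociation of the tissue. The references were 1 library of splenocytes enriched on magnetic beads for CD21+ cells, as normal B cells, and 1 library enriched likewise for CD3+ cells, as normal T cells. RNA was extracted from equal numbers of cells. The labels give no treatment, genotype, strain or age for any group, and the number of pigs behind the clones is not stated, so that p-values measure the spread between clones alone.

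In glycolysis, hexokinase traps glucose as a phosphate, phosphofructokinase commits it to breakdown, and the later enzymes from aldolase to pyruvate kinase yield pyruvate and ATP. Lactate dehydrogenase turns pyruvate into lactate, which monocarboxylate transporters carry out of the cell, while pyruvate dehydrogenase kinases hold pyruvate back from the mitochondrion. The hypoxia-inducible factor (HIF) is a pair of an alpha subunit, HIF1A or EPAS1, and ARNT; when oxygen is present, the prolyl hydroxylases EGLN1, EGLN2 and EGLN3 mark the alpha subunit for destruction through VHL, and when oxygen is scarce HIF switches on many glycolytic genes together with VEGFA, BNIP3, CA9 and others. Activated and dividing lymphocytes are known to raise glycolysis even in the presence of oxygen.

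The libraries held 16415644 to 27253505 counts. Levels are given as CPM, counts relative to library size after scaling by TMM factors, which correct for differences in library composition. The marker genes went with the labels: the summed level of 6 B cell genes (of 7 listed) was 3305 to 4273 CPM in the clones, 5209 in CD21+ splenocytes and 141 in CD3+ splenocytes, and that of 7 of 7 T cell genes was 42.7 to 56.4, 98.5 and 5998 CPM. CR2, the gene of CD21 itself, was not matched and is not used here. Markers of other cell types differed between the clones and the CD21+ library in both directions. The summed level of 8 of 8 myeloid genes was 38.9 to 57.6 CPM in the clones and 91.8 in CD21+ splenocytes, with CD163 at 0 counts in all 6 clones. Within that list CSF1R ran the other way, at 28.9 to 48.9 CPM in the clones and 26.6 in CD21+ splenocytes, as did MPO, at 1.36 to 16.6 and 0 CPM. For 5 of 5 stroma and endothelium genes the sum was 7.06 to 15.6 CPM in the clones and 241 in CD21+ splenocytes. Most of it was PECAM1, at 6.92 to 15.5 and 184 CPM, and FN1 stood at 54.8 CPM in CD21+ splenocytes. COL1A1, COL3A1 and VWF were low in that library too, at 0.548, 1.41 and 0.137 CPM, and COL3A1 was at 0 in all 6 clones. For 6 of 6 cytotoxic genes the sum was 17.9 to 27.1 and 87.0 CPM, with PRF1 at 0 in the clones. Nearly all of the cytotoxic sum in the clones was NKG7, which was higher there, at 17.7 to 27.0 CPM against 7.07 in CD21+ splenocytes. CD5, likewise, made up most of the T cell sum of the clones, at 35.3 to 48.4 CPM against 10.4. The 3 matched platelet genes (of 4 listed) summed to 119 to 127 CPM in the clones and 97.8 in CD21+ splenocytes, most of it ITGA2B. Within that list PPBP ran the other way, at 0 to 0.0566 CPM in the clones and 15.3 in CD21+ splenocytes. GP9 was at 1.33 to 2.53 CPM in the clones, around the 2.19 of CD21+ splenocytes. Of 4 matched erythroid genes, HBB, HBM and ALAS2 were at 0 in the clones, and the sum was at most 0.0381 CPM there and 4.47 in CD21+ splenocytes. The part of these cells in the differences described next was not tested. Culture and lymphoma cannot be told apart in any difference from a control, because the labels describe growth in culture for the clones alone. In bulk RNA, a smaller share of expressing cells and less RNA per cell cannot be told apart either.

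The comparison with CD21+ splenocytes asks how the lymphoma clones differ from normal B cells. Most genes of sugar breakdown and lactate export rose in the clones, together with the hypoxia targets VEGFA, BNIP3 and P4HA2, while the HIF subunits themselves and the regulators PFKFB3 and PFKFB4 fell. Of the 38 genes, which were all tested, 24 rose and 8 fell (edgeR quasi-likelihood test, Benjamini-Hochberg adjusted p below 0.05), against 34.8% of 13498 genes tested that rose and 32.4% that fell. The median log2 fold change was 1.18 over the 38 genes and 0.05 over all genes tested. By 2-fold or more 20 of the 38 rose, against 22.6% of all genes tested, and 6 of the 38 fell, against 16.7%, a share near that of all genes. When libraries were scaled by total counts alone, the median of all genes moved to 0.35, and 26 of the 38 rose and 6 fell. By that scaling 6190 genes of all those tested were higher and 3093 lower, against 4697 and 4372 with TMM.

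**Figure D1:**
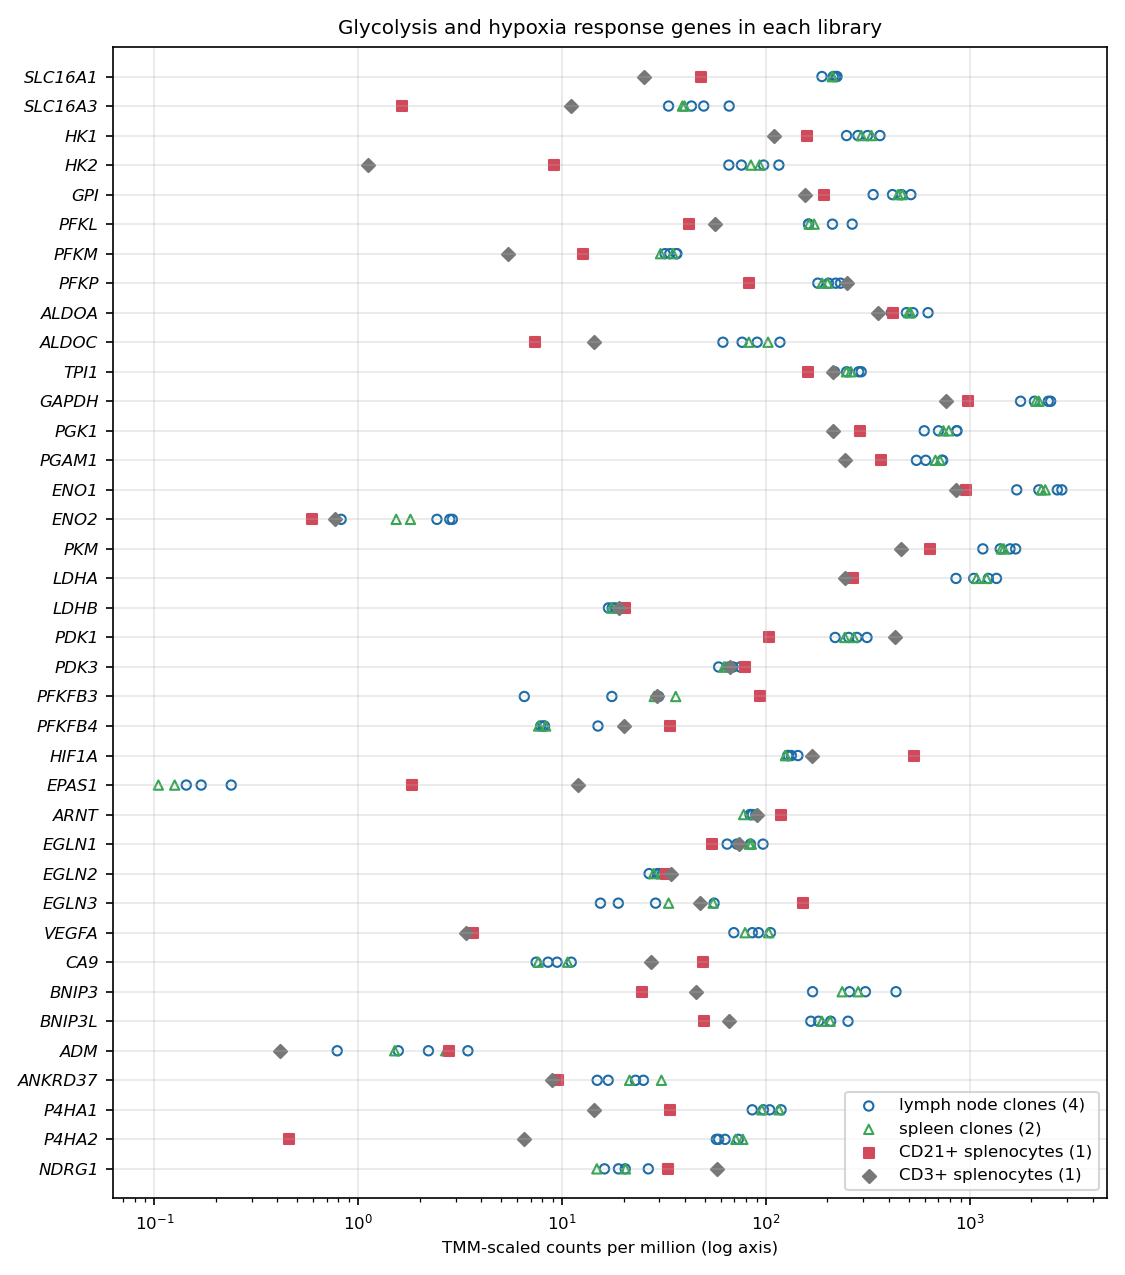
Level of each of the 38 genes in each of the 8 libraries, in TMM-scaled CPM on a log axis; open symbols are the clones and filled symbols the 2 control libraries, and levels of 0 are not drawn. For LDHA the 6 clones lie between 855 and 1350.2 CPM, above both controls, and for HIF1A between 125 and 143 CPM, below both.

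Both lactate transporters that were matched rose. SLC16A3, the MCT4 exporter that glycolytic cells use to release lactate, had a lowest, median and highest level of 33.3, 41.5 and 66.0 CPM in the clones, against 1.64 CPM in CD21+ splenocytes (36 counts) and 11.0 CPM in CD3+ splenocytes. Its log2 fold change over CD21+ was 4.76 ± 0.49 (SE, adjusted p = 6.09e-05), and no clone came near the CD21+ level. SLC16A1, the widely expressed transporter MCT1, stood at 188, 213 and 223 CPM, against 48.2 in CD21+ and 25.3 in CD3+ splenocytes (log2 2.12 ± 0.12 over CD21+, adjusted p = 2.01e-06). The clones differed from each other less in this gene than in SLC16A3, with coefficients of variation of 5.76% and 25.6%.

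Of 15 enzymes from hexokinase to pyruvate kinase, 13 rose against CD21+ splenocytes and none fell, and together they took a share of all counts of 1.01 ± 0.126% in the clones (SD, n = 6), against 0.375% for CD21+ and 0.294% for CD3+ splenocytes. HK2, the inducible hexokinase typical of tumours and activated cells, reached 65.7, 88.6 and 116 CPM in the clones, against 9.08 CPM in CD21+ splenocytes, a log2 fold change of 3.27 ± 0.34 (adjusted p = 6.01e-05). In CD3+ splenocytes it had 19 counts, 1.12 CPM (95% counting interval 0.675 to 1.75). HK1, the constitutive hexokinase, was at 248, 304 and 362 CPM against 158 and 109, so that every clone exceeded both controls, but by a smaller step (log2 0.93 ± 0.19 over CD21+, adjusted p = 0.00244).

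The next enzyme, GPI, which turns glucose phosphate into fructose phosphate, had 335, 453 and 513 CPM in the clones against 192 in CD21+ splenocytes. Of the phosphofructokinase subunits, PFKL, the liver type, showed the widest step over CD21+, with 162, 167 and 265 CPM against 41.8 (log2 2.16 ± 0.32). PFKM, the muscle type, had 30.4, 34.3 and 36.5 CPM against 12.7, and PFKP, the platelet type, 179, 201 and 232 CPM against 82.2. All 3 subunits and GPI rose, with adjusted p between 3.65e-05 and 0.00115.

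The aldolases behaved differently from each other. ALDOC, the brain-type aldolase and a HIF target, had 61.4, 86.4 and 117 CPM in the clones against 7.35 CPM in CD21+ splenocytes, a log2 fold change of 3.57 ± 0.39 (adjusted p = 8.30e-05). ALDOA, the general aldolase, had 412, 506 and 623 CPM against 417, and its log2 value of 0.28 ± 0.18 did not pass (adjusted p = 0.207). It passed under total-count scaling, at log2 0.58 (adjusted p = 0.0225).

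The lower part of the pathway moved by steps close to each other. GAPDH, the enzyme that reduces NAD during glycolysis and a common reference gene in PCR assays, had 1772, 2143 and 2489.7 CPM in the clones against 975 in CD21+ splenocytes. PGK1, which makes the first ATP of the pathway, had 597, 765 and 864 CPM against 288. ENO1, the general enolase, had 1697, 2292 and 2824 CPM against 958. PKM, pyruvate kinase, had 1157, 1448 and 1677 CPM against 640.05. All 6 clones exceeded the CD21+ library in each of these genes, and the log2 fold changes were 1.14 ± 0.18, 1.38 ± 0.20, 1.27 ± 0.25 and 1.17 ± 0.18 in that order (adjusted p 0.00068, 0.000459, 0.00243 and 0.00067). PGAM1, a mutase, and TPI1, triose phosphate isomerase, rose by less than 2-fold, with log2 fold changes of 0.85 ± 0.17 and 0.67 ± 0.16. ENO2, the neuronal enolase, was near the limit of detection at 0.824, 2.12 and 2.90 CPM against 0.593 CPM (13 counts), and it did not pass (adjusted p = 0.0611). It passed without lymph node clone 4, the lowest of the clones, at log2 1.92 (adjusted p = 0.00998). Genes such as GAPDH and PGK1 have processed pseudogenes that may share their reads.

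At the branch point of pyruvate, LDHA and PDK1 rose while LDHB and PDK3 did not pass. LDHA, the lactate dehydrogenase subunit that favours lactate formation, had 855, 1144 and 1350.2 CPM in the clones against 267 in CD21+ and 244 in CD3+ splenocytes, a log2 fold change over CD21+ of 2.06 ± 0.24 (adjusted p = 0.00013). LDHB, the subunit that favours the return to pyruvate, had 16.9, 17.9 and 20.1 CPM in the clones, around the 20.3 of CD21+ and 19.1 of CD3+ splenocytes (log2 -0.17 ± 0.12 over CD21+, adjusted p = 0.247, and 0.13 under total-count scaling). PDK1, a kinase that shuts pyruvate dehydrogenase and a HIF target, had 218, 262 and 313 CPM against 103 in CD21+ splenocytes (log2 1.33 ± 0.18, adjusted p = 0.000312). In CD3+ splenocytes PDK1 was higher than in any clone, at 431 CPM. PDK3, a related kinase, had 58.6, 64.5 and 74.7 CPM in the clones against 78.5 in CD21+ splenocytes, a log2 value of -0.27 ± 0.12 (adjusted p = 0.074) that became 0.028 when libraries were scaled by total counts; leaving out lymph node clone 1 gave -0.32, which passed (adjusted p = 0.0215).

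PFKFB3 and PFKFB4, which make the fructose bisphosphate that activates phosphofructokinase and are HIF targets in many human cells, both fell. PFKFB3 had 6.52, 28.8 and 36.1 CPM in the clones against 93.9 in CD21+ splenocytes (log2 -1.94 ± 0.57, adjusted p = 0.0159), with lymph node clone 4 the lowest. PFKFB4 had 7.67, 8.13 and 14.99 CPM against 33.9 (log2 -1.90 ± 0.30, adjusted p = 0.000661). Neither range reached the CD21+ level.

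The 3 HIF subunits fell against CD21+ splenocytes. HIF1A had 125, 128 and 143 CPM in the clones against 531 in CD21+ splenocytes, a log2 fold change of -2.04 ± 0.08 (adjusted p = 3.74e-07), and its coefficient of variation over the clones was 5.43%. EPAS1, the HIF2 alpha subunit best known from endothelium, had 18 counts over the 6 clones and 0 in lymph node clone 3, with a median of 0.135 CPM, against 1.83 CPM in CD21+ splenocytes (40 counts) and 12.0 CPM in CD3+ splenocytes. The ratio of the clones to CD21+ splenocytes was 0.0678 (95% counting interval 0.0366 to 0.121, counting error only). The summed stroma and endothelium markers stood at 241 CPM in CD21+ and 108 CPM in CD3+ splenocytes. Most of each sum was PECAM1, at 184 and 91.7 CPM, while VWF was at 0.137 and 1.30 CPM. Whether such cells have a part in the EPAS1 difference was not tested. ARNT, the partner subunit, had 77.7, 85.0 and 89.1 CPM against 119 (log2 -0.50 ± 0.08, adjusted p = 0.00103), and this call was lost under total-count scaling (log2 -0.20, adjusted p = 0.0788).

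The prolyl hydroxylases that turn HIF over did not move together. EGLN3, itself a HIF target, fell in the clones, which had 15.4, 31.0 and 55.6 CPM against 152 in CD21+ splenocytes (log2 -2.16 ± 0.54, adjusted p = 0.00744). It varied 3.61-fold between the highest and the lowest clone. EGLN1, the main HIF hydroxylase, rose to 64.5, 83.4 and 96.6 CPM against 54.4 (log2 0.56 ± 0.19, adjusted p = 0.0326), a call that was lost without spleen clone 1 (adjusted p = 0.0537) or spleen clone 2 (adjusted p = 0.0549). EGLN2 had 26.7, 29.7 and 31.1 CPM against 32.4 and did not pass (log2 -0.16 ± 0.10, adjusted p = 0.196, and 0.14 under total-count scaling).

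Among the 9 other hypoxia targets, 6 rose, 2 fell and ADM did not pass. P4HA2, a prolyl hydroxylase of collagen, had the highest fold change of the 38 genes, with 57.1, 67.0 and 76.9 CPM in the clones against 0.456 CPM in CD21+ splenocytes. The control held 10 counts, so the ratio of 148 has a 95% counting interval of 80.3 to 308 (edgeR log2 7.16 ± 0.33, adjusted p = 8.96e-07). P4HA2 lies on chromosome 2 at 134502210 to 134595444 in the RefSeq annotation of Sscrofa11.1, where its span overlaps PDLIM4 over 14990 bases and SLC22A4 over 602. PDLIM4 stood at 0.792 ± 0.367 CPM and SLC22A4 at 0.0360 ± 0.0592 CPM in the clones (SD, n = 6), far under P4HA2. P4HA1, the partner hydroxylase, had 85.6, 101 and 119 CPM against 33.8 (log2 1.59 ± 0.19, adjusted p = 0.000139).

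VEGFA, the growth factor that draws in blood vessels, lies on chromosome 7 at 38746393 to 38762282. It had 69.5, 88.8 and 105 CPM in the clones, against 3.65 CPM in CD21+ and 3.36 CPM in CD3+ splenocytes. The lowest clone was thus far above both controls (log2 4.59 ± 0.31 over CD21+, adjusted p = 6.05e-06). BNIP3 and BNIP3L encode mitochondrial receptors that mark mitochondria for removal by autophagy. BNIP3 had 169, 270.0 and 434 CPM against 24.8 in CD21+ splenocytes (log2 3.49 ± 0.52, adjusted p = 0.00046). BNIP3L had 166, 197 and 252 CPM against 49.8 (log2 1.99 ± 0.23, adjusted p = 0.000103). The mitochondrially encoded transcripts took a mean share of 7.07 ± 0.562% over the clones (SD, n = 6), against 10.9% for CD21+ and 21.6% for CD3+ splenocytes. A link between this share and BNIP3 or BNIP3L was not tested. ANKRD37, an ankyrin repeat protein induced by HIF, had 14.9, 22.2 and 30.7 CPM against 9.58 (log2 1.18 ± 0.38, adjusted p = 0.0224), and it did not pass in limma-voom (adjusted p = 0.0644).

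CA9, a carbonic anhydrase at the cell surface that is widely used as a hypoxia marker in human tumours, fell. It had 7.46, 8.99 and 11.08 CPM in the clones against 49.3 CPM in CD21+ splenocytes (log2 -2.45 ± 0.19, adjusted p = 1.16e-05). NDRG1, a stress-response gene, had 14.8, 19.6 and 26.5 CPM against 33.2 (log2 -0.78 ± 0.25, adjusted p = 0.0215), a call lost under total-count scaling (adjusted p = 0.141). ADM, a vasodilator peptide, had 0.789, 1.89 and 3.45 CPM against 2.78 and overlapped the control (adjusted p = 0.523). Among targets of the same factor, the sign of the change therefore differed between VEGFA or BNIP3 and CA9 or EGLN3.

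**Figure D2:**
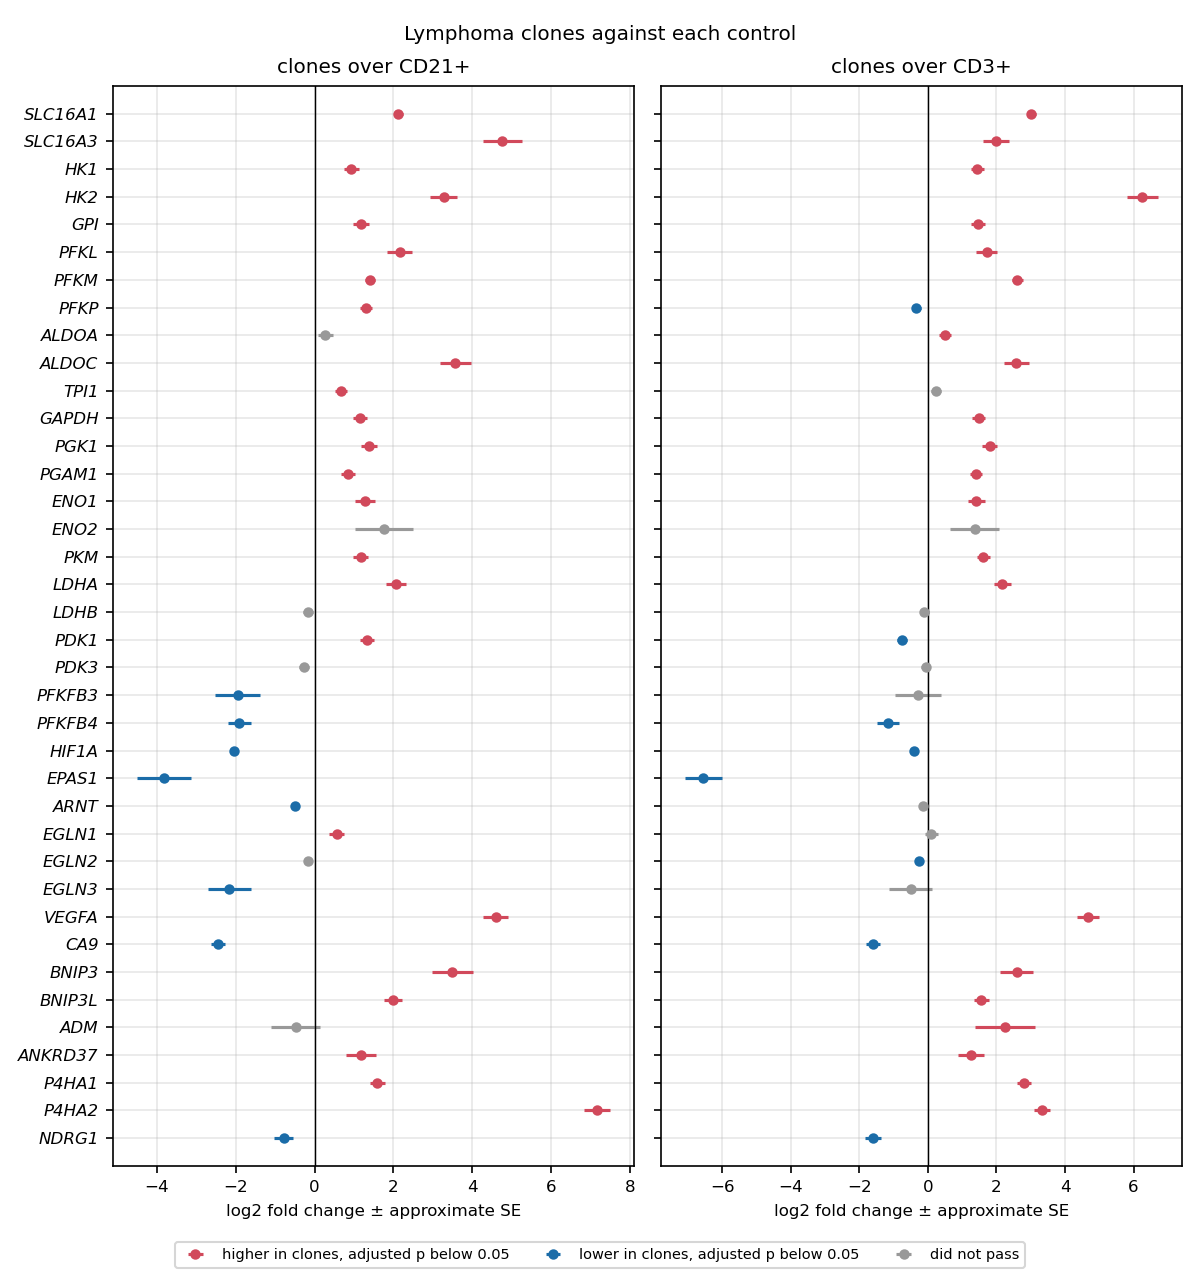
Log2 fold change of each of the 38 genes, clones over CD21+ splenocytes (left) and clones over CD3+ splenocytes (right), with the approximate SE as bars; red rose, blue fell and grey did not pass an adjusted p of 0.05. P4HA2 lies farthest right against CD21+ at 7.16 and HK2 against CD3+ at 6.26, while PFKP and PDK1 change side between the panels, although PFKP stood at 0.12 against CD3+ under total-count scaling.

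**Figure D3:**
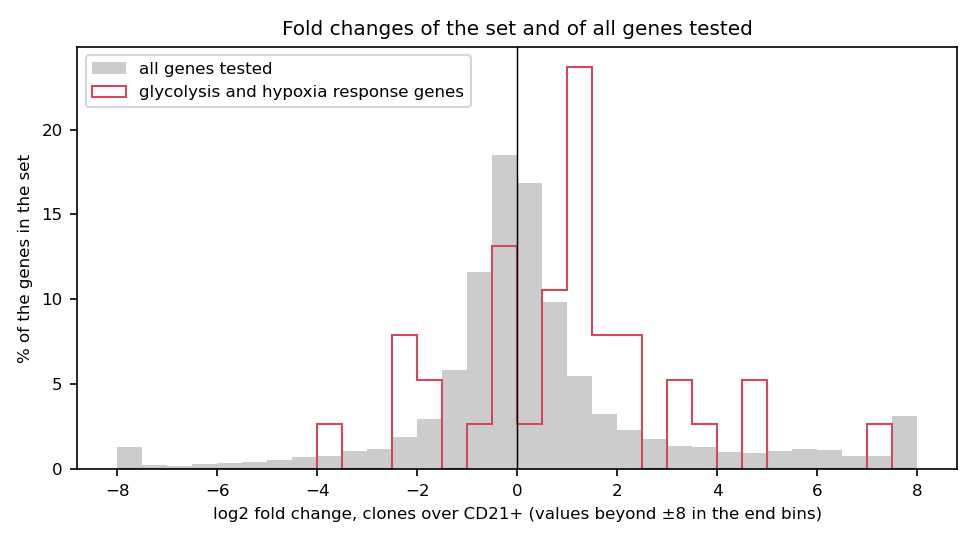
Log2 fold changes, clones over CD21+ splenocytes, of the 38 genes (red outline) and of all 13498 genes tested (grey), each as a percentage of its own set in bins on the horizontal axis. The median of the 38 genes is 1.18 and that of all genes tested is 0.05.

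The comparison with CD3+ splenocytes shows which of these differences also hold against normal T cells; it shares the 6 clones with the comparison above. Most glycolytic genes were higher in the clones here too, but PFKP and PDK1 lay below the T cell library. Of the 38 genes 22 rose and 8 fell, against 36.8% of 13560 genes tested that rose and 35.1% that fell, with a median log2 fold change of 1.41 over the 38 and 0.05 over all genes. By 2-fold or more 21 of the 38 rose and 4 of the 38 fell, against 24% and 20.4% of all genes tested. Under total-count scaling 27 rose and 3 fell, and the median of all genes moved to 0.51. By that scaling 6854 genes of all those tested were higher and 3114 lower, against 4992 and 4765 with TMM.

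HK2 had a log2 fold change of 6.26 ± 0.46 (adjusted p = 7.58e-06) and VEGFA one of 4.68 ± 0.32 (adjusted p = 4.91e-06). LDHA rose by 2.17 ± 0.25, SLC16A1 by 3.02 ± 0.13 and PFKM by 2.61 ± 0.16. The T cell library thus stood under every clone for these genes. PFKP had 251 CPM in CD3+ splenocytes and lay lower in the clones (log2 -0.34 ± 0.13, adjusted p = 0.0439), but the value was 0.12 under total-count scaling. The PFKP call was lost without lymph node clone 2 or 3 or either spleen clone, with adjusted p between 0.0543 and 0.0719. PDK1 fell by 0.75 ± 0.16 on the log2 scale (adjusted p = 0.00253), and under total-count scaling its log2 value of -0.30 did not pass (adjusted p = 0.121).

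HIF1A was closer to the T cell library than to the B cell library, with 168 CPM in CD3+ splenocytes. Its log2 fold change over CD3+ was -0.40 ± 0.09 (adjusted p = 0.00367) and turned to 0.056 under total-count scaling. EPAS1 fell by 6.56 and CA9 by 1.61 ± 0.21 on the log2 scale. The expression filter passed EPAS1 through the CD3+ library alone, so no p-value is given for it. PFKFB4 and NDRG1 fell as well, PFKFB4 by 1.17 ± 0.33 and NDRG1 by 1.60 ± 0.23, and the PFKFB4 call was lost by total-count scaling (adjusted p = 0.0942). PFKFB3 had 29.3 CPM and EGLN3 47.6 CPM in CD3+ splenocytes, within the range of the clones, and neither passed. EGLN2 fell by 0.27 ± 0.10 on the log2 scale (adjusted p = 0.0448) and turned to 0.19 under total-count scaling. The EGLN2 call was also lost with no filter, in limma-voom and in the fit on all 8 libraries. Leaving out lymph node clone 1 or 2 or spleen clone 1 lost it too. RAB4B overlaps EGLN2 over 7777 bases and stood at a mean of 48.1 CPM in the clones, against 88.5 in CD21+ and 102 in CD3+ splenocytes. ALDOA (log2 0.49 ± 0.18, adjusted p = 0.0402) and ADM (2.24 ± 0.88, adjusted p = 0.0478) passed narrowly, and each call was lost when any of several clones was left out, spleen clone 1 and spleen clone 2 among them.

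Against both controls 20 genes were higher, against 27.1% of 13187 genes tested in both comparisons, and 5 were lower, against 22.8%. The 20 were SLC16A1, SLC16A3, HK1, HK2, GPI, PFKL, PFKM, ALDOC, GAPDH, PGK1, PGAM1, ENO1, PKM, LDHA, VEGFA, BNIP3, BNIP3L, ANKRD37, P4HA1 and P4HA2. The 5 were PFKFB4, HIF1A, EPAS1, CA9 and NDRG1, and under total-count scaling 2 genes were lower than both. TPI1 and EGLN1 were higher than CD21+ splenocytes and did not pass against CD3+ splenocytes, where both passed under total-count scaling (TPI1 log2 0.69, adjusted p = 0.00312; EGLN1 log2 0.55, adjusted p = 0.0218). No gene of the 38 was lower than the CD21+ library and higher than the CD3+ library.

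The controls, with 1 library each, were compared by fold alone. Of 37 genes at 1 CPM or more in either library, 7 were 2-fold or more higher in CD21+ than in CD3+ splenocytes, against 13.8% of 11963 genes, and 5 were 2-fold or more lower, against 16.9%. HIF1A, EGLN3 and PFKFB3 were among the 7, at 531 and 168 CPM, 152 and 47.6 CPM, and 93.9 and 29.3 CPM in CD21+ and CD3+ splenocytes. PDK1 and PFKP were among the 5, at 103 and 431 CPM and at 82.2 and 251 CPM. With TMM scaling the clones lay between the controls in PDK1 and PFKP, and below both in HIF1A; the signs of PFKP and HIF1A against CD3+ turn under total-count scaling, as given above.

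Ratios between related genes within a library need no scaling between libraries. Transcripts differ in length, so a ratio of counts is not a ratio of molecules, and it is compared here between libraries alone. The log2 ratio of LDHA to LDHB counts was 5.60 to 6.21 in the clones, 3.72 in CD21+ and 3.68 in CD3+ splenocytes, that is 61.4 LDHA counts for each LDHB count in the clones (geometric mean) against 13.2 and 12.8. HK2 to HK1 was -1.96 to -1.44 in the clones against -4.12 and -6.61, and ALDOC to ALDOA -2.74 to -2.29 against -5.83 and -4.61. In each of these 3 pairs all 6 clones lay above both controls, as they did in 3 further pairs, PFKL to PFKP, PFKM to PFKP and BNIP3 to BNIP3L.

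Other pairs set the controls apart from each other. SLC16A3 to SLC16A1 was -2.75 to -1.73 in the clones, above the -4.88 of CD21+ splenocytes and below the -1.20 of CD3+ splenocytes. BNIP3 to BNIP3L was 0.0289 to 1.06 in the clones against -1.01 and -0.55. PFKM to PFKP was -2.67 to -2.49 in the clones against -2.70 in CD21+ and -5.53 in CD3+ splenocytes, a difference of 0.11 from the B cell library. EGLN3 to EGLN1 was -2.65 to -0.59 in the clones against 1.48 in CD21+ and -0.63 in CD3+ splenocytes. PFKL to PFKP was -0.44 to 0.19 against -0.97 and -2.16. ENO2 to ENO1 and PFKFB4 to PFKFB3 overlapped both controls, and EPAS1 to HIF1A, with 0.5 added to the counts, was -12.88 to -8.99 against -8.17 and -3.80. The ratios of the 6 clones were not tested against the 1 library of each control and are given as values.

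**Figure D4:**
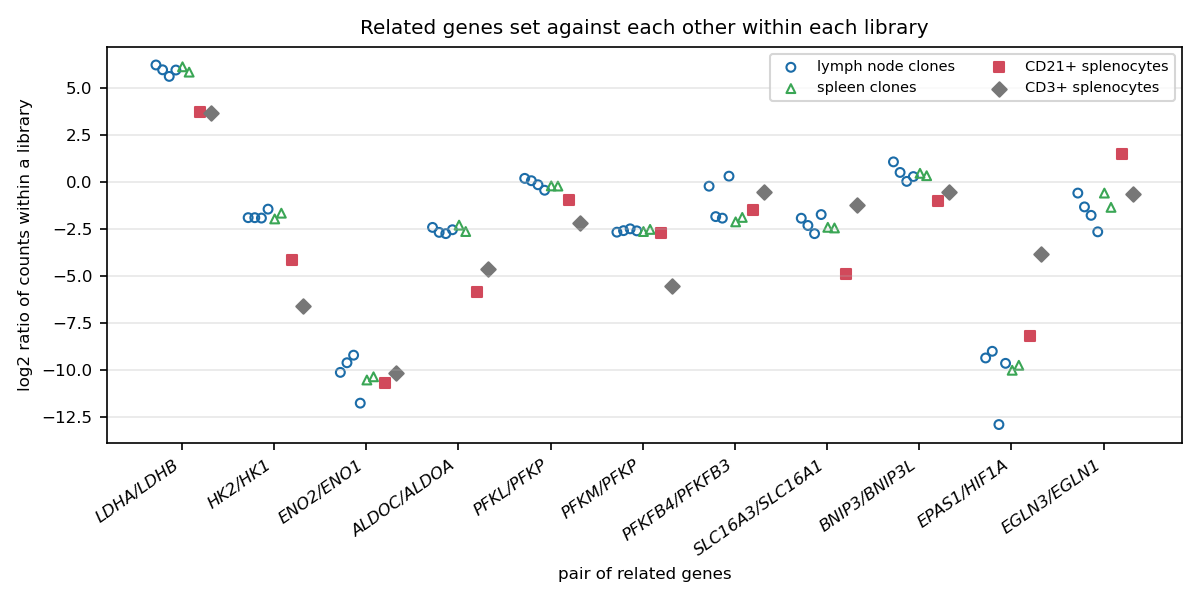
Log2 ratio of the counts of 11 pairs of related genes within each library, clones as open symbols left of the filled CD21+ and CD3+ symbols; 0.5 was added to the counts of EPAS1 and HIF1A, since EPAS1 had 0 counts in lymph node clone 3. The 6 clones lie at 5.60 to 6.21 for LDHA to LDHB, against 3.72 in CD21+ and 3.68 in CD3+ splenocytes.

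The comparison of lymph node and spleen clones is the one with replicates on both sides, 4 against 2. No gene of the 37 tested was called, nor was any of 12580 genes (0%) in edgeR, where 605 genes and none of the 37 had an unadjusted p under 0.05. DESeq2 called 20 genes, none of the 37, and limma-voom none at all. Log2 values of lymph node over spleen clones ran from -0.63 for PFKFB3 to 0.42 for ENO2 with a median of 0.0035. VEGFA, for example, had 105, 91.9, 69.5 and 85.7 CPM in the lymph node clones and 103 and 78.9 CPM in the spleen clones, ranges that overlap. An exact two-sided permutation test of the 11 gene ratios gave a lowest p of 0.2. With 4 against 2 this test cannot go below 0.0667, so it cannot decide whether a ratio differs between the sites.

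The genes that rose against CD21+ splenocytes were mostly lowest in the same clone. Lymph node clone 3 had the lowest level of the 6 clones in 22 of the 24 genes that were higher than in CD21+ splenocytes, and lymph node clone 1 or 4 the highest in 21 of them. Over 8883 genes with a clone mean of 10 CPM or more, lymph node clone 3 was lowest in 11.5%, lymph node clone 1 highest in 21.5% and lymph node clone 4 highest in 31.7%. The median distance from the mean of the log2 levels over the 24 genes was -0.30 in lymph node clone 3, 0.20 in lymph node clone 1 and 0.13 in lymph node clone 4 on the log2 scale. BNIP3 had the highest ratio between clones of the 24, 2.57-fold, with 169 CPM in lymph node clone 3 and 434 CPM in lymph node clone 1. LDHA had 855 CPM in lymph node clone 3 and 1350.2 CPM in lymph node clone 1, and ENO1 1697 CPM in lymph node clone 3 and 2824 CPM in lymph node clone 4. With total-count scaling lymph node clone 3 was lowest in 21 of the 24. Over all 38 genes lymph node clone 3 was lowest in 24. The 8 genes lower than in CD21+ splenocytes had another order: lymph node clone 3 was lowest in 1 of them, lymph node clone 1 highest in 5, and lymph node clone 4 highest in 0 and lowest in 3.

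Genes of the set share the libraries they were measured in, so this order is a description of the libraries. The summed level of 5 proliferation genes (of 6 listed) was also lowest in lymph node clone 3, at 1748 CPM, and highest in lymph node clone 4 and lymph node clone 1, at 2253 and 2174 CPM, against 732 CPM in CD21+ and 328 CPM in CD3+ splenocytes. Whether it has a part in the differences, between clones or from the controls, was not tested. Over the 33 genes of the set at a clone mean of 10 CPM or more, the median coefficient of variation among clones was 13.4%, and over the 8883 genes 7.78%. HIF1A and ARNT were among the steadier genes, at 5.43% and 4.91%, and EGLN3 and PFKFB3 among the less steady, at 50.4% and 43.5%.

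**Figure D5:**
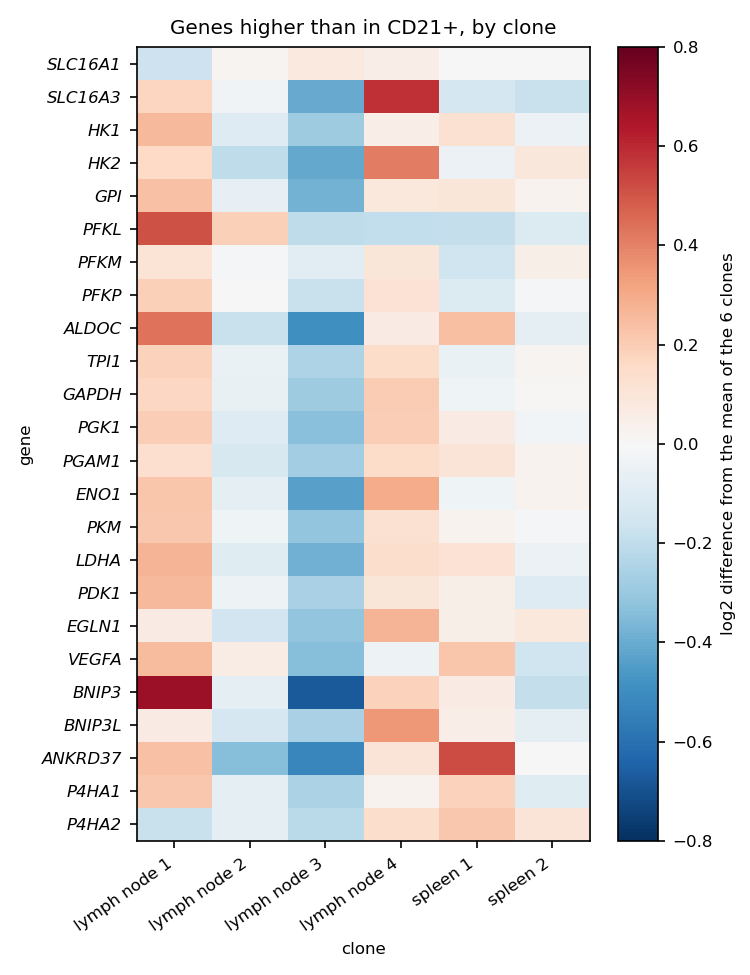
Log2 difference of each clone from the mean of the 6 clones, for the 24 genes higher than in CD21+ splenocytes; red is above and blue below the mean. Lymph node clone 3 is lowest in 22 of the 24 genes, and lymph node clone 1 or 4 highest in 21.

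Other genes of the pathway and its branches moved in both directions, and the number that rose against CD21+ splenocytes lay near the share over all genes tested. Of 35 tested genes of a list of 44 other carbon metabolism genes, 13 rose and 7 fell against CD21+ splenocytes, where 34.8% of all genes tested rose and 32.4% fell, with a median log2 fold change of 0.26 against 0.05 over all genes. Under total-count scaling 20 rose, while 6190 of all genes tested rose by that scaling, against 4697 with TMM. SLC16A7, the high-affinity monocarboxylate transporter MCT2, rose to 14.0, 15.1 and 17.8 CPM in the clones, against 0.821 CPM in CD21+ splenocytes (18 counts; log2 4.23 ± 0.24, adjusted p = 2.61e-06). PDP1, the phosphatase that reactivates pyruvate dehydrogenase, rose by 1.39 ± 0.10, and PDK2, a kinase that acts against it, by 1.25 ± 0.19 on the log2 scale. LDHD, a mitochondrial enzyme of D-lactate, had 9 counts summed over 6 clones against 117 counts for CD21+ splenocytes (5.34 CPM). HK3, a hexokinase best known from myeloid cells, stood at 5.87, 7.002 and 8.82 CPM, against 31.2 in CD21+ and 76.3 in CD3+ splenocytes. Both fell, as did SLC2A6, a sugar transporter, at 0.430, 0.877 and 1.19 CPM against 2.69. Against CD3+ splenocytes 20 of the 35 rose and 8 fell, where 36.8% of all genes tested rose and 35.1% fell.

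Of 35 tested genes of 44 other hypoxia and HIF regulator genes, 15 rose and 10 fell against CD21+ splenocytes, and 14 rose and 15 fell against CD3+ splenocytes. These counts lie near the shares over all genes tested, 34.8% and 32.4% against CD21+ and 36.8% and 35.1% against CD3+. Genes nearly silent in normal lymphocytes had the highest values. ARNT2, a relative of ARNT that can pair with HIF alpha subunits and is best known from neurons, had 17.5, 33.2 and 40.0 CPM in the clones. The CD21+ library held 3 counts of it, a ratio of 232 with a 95% counting interval of 79.5 to 1127. In the CD3+ library it had 0 counts, at least 175-fold higher in the clones. PLOD2, a collagen lysyl hydroxylase and HIF target, had 11.5, 25.3 and 32.8 CPM in the clones against 0 counts in CD21+ splenocytes, so that it was at least 181-fold higher. Its relative PLOD1 fell, to 0.113, 0.295 and 0.488 CPM in the clones against 8.76 CPM. STC2, a secreted glycoprotein, had 2.15, 14.7 and 27.3 CPM in the clones and 0 counts in either control, at least 118-fold higher than CD21+ splenocytes. JMJD6, a lysyl hydroxylase of the nucleus, fell by 1.31 ± 0.12 on the log2 scale. EPO, the hormone of red cell formation, had 0 counts over all clones and 22 counts for CD21+ splenocytes, at least 48.6-fold lower in the clones. Against CD21+ splenocytes ARNT2, PLOD2 and STC2 passed the expression filter through the clones alone, and EPO through the CD21+ library alone. No p-value is therefore given for them. Bounds set 3 counts where a group had 0, per control library or over the 6 clones.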

How the data were processed

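Counts per gene for 6 lymphoma clones, 1 CD21+ and 1 CD3+ splenocyte library were taken as the authors deposited them. Per the submitters' processing notes, the tools were Trimmomatic, Bowtie2 and edgeR (no versions), and the series' design text gives the genome as Sscrofa11.1. Not given in the sources used here: the counting tool, the annotation and strandedness; genes that overlap may therefore share reads. RefSeq coordinates for Sscrofa11.1 were found for 37 of the 38 genes, and 17 of these overlap another gene. The deposited counts of the 7 libraries present in both tables were identical, and the second table's RPM equalled count over total within 7.3e-12. It ends in 2 lines without a feature ID, which were left out, and 8 per-library columns that repeat the RPM were not used. The authors' deposited signed fold change, read as a score, and the authors' deposited p-values were compared with the new fit: in the authors' deposited table, 38 of 38 genes changed in the same direction.

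Genes were tested with edgeR 4.0.16 (R 4.3.3; two-sided quasi-likelihood test after TMM scaling and filterByExpr, with Benjamini-Hochberg adjustment over all genes tested, threshold 0.05), the 6 clones against each control in separate fits and lymph node over spleen clones. The SE was approximated from the fold change and its F statistic (log2 value divided by root F). The lone control was assumed to vary like the clones. Levels use TMM factors over all 8 libraries, and 3 counts correspond to 0.105 to 0.177 CPM per library. The script was tested on simulated counts. For clones over CD21+ it called 53.1% of simulated log2 changes of 1 and 82.1% of those of 2. For lymph node over spleen clones it called 60.8% and 88.9%. False calls were 5.15% and 5.77% of all calls. A gene that did not pass may therefore still differ. For clones over CD21+ only 96 and 95 of the 13152 genes in that script test were given log2 changes of 1 and 2. In the data 4697 genes were higher and 4372 lower than in CD21+ splenocytes. Whether the rates hold with that many changes was not tested. Alternatives were RLE and total-count scaling, no filter, a filter of 1 CPM, DESeq2 1.42.0, limma-voom (limma 3.58.1), a fit on all 8 libraries, leaving out each clone, and a replicate block. Pairs of clones differed beyond sampling noise (chi-square per degree of freedom 3.97 or more). Intervals are exact and cover counting error only. Genes were named by a rule: those called against CD21+ splenocytes with a 2-fold change, the rest by range, and 3 genes at each end of each further list. The genes and lists were chosen with earlier results of these data known.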

Additional observations from a re-analysis of the deposited data

Results flagged for a closer look

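PFKFB4 stood at 14.99 CPM in lymph node clone 1, apart from the other clones at 7.67 to 8.30 CPM, and this held among the 6 clones and among the 4 lymph node clones alone. SLC16A1 stood at 188 CPM in lymph node clone 1, under the other clones at 212 to 223 CPM. These were the 3 cases of 76 groups checked, 2 for each of the 38 genes, in which 1 clone lay farther from its neighbour than Dixon's 95% limit for the range of the group. Chance alone marks about 1 group in 20.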

How the results depend on the processing

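The numbers of genes higher and lower than CD21+ splenocytes stayed within 1.5 times of 24 and 8 under every alternative that was run. Total-count scaling reduced the genes lower than CD3+ splenocytes to 3 and those lower than both controls to 2. It raised the other carbon metabolism genes higher than CD21+ splenocytes to 20 and reduced the other hypoxia genes lower than CD3+ splenocytes to 9. Over all genes tested, this scaling lowered those below CD3+ splenocytes from 4765 to 3114 and raised those above CD21+ splenocytes from 4697 to 6190. It turned the log2 value against CD21+ splenocytes of LDHB to 0.13, PDK3 to 0.028 and EGLN2 to 0.14, and against CD3+ splenocytes of PFKP to 0.12, LDHB to 0.35, PDK3 to 0.39, PFKFB3 to 0.17, HIF1A to 0.056, ARNT to 0.32 and EGLN2 to 0.19; the cause was not tested. A 4-fold rule left 2 genes higher in CD21+ than in CD3+ splenocytes. Leaving out each clone in turn gave 23 to 25 genes higher and 8 to 9 lower than CD21+ splenocytes, 20 to 23 higher and 6 to 8 lower than CD3+ splenocytes, and 20 to 21 higher than both. The ratio of ENO2 to ENO1, clones minus CD3+, then ran from -0.35 to 0.16 and that of PFKFB4 to PFKFB3, clones minus CD21+, from -0.13 to 0.36. With the replicate number as a block in edgeR, 1 gene, PFKL, was called between lymph node and spleen clones (log2 0.51, adjusted p = 0.0378). Of all genes tested, 420 were higher and 150 lower by that fit. Only numbers 1 and 2 occur at both sites, so the site difference rests on those clones. Clones with the same number share nothing else in the labels. Their deviations correlated at 0.234 (number 1) and -0.0501 (number 2). Lymph node clone 4 and spleen clone 2, with unlike numbers, correlated at 0.244. With 2 spleen clones these values mirror each other, as 0.234 and -0.234 for lymph node clone 1. They therefore cannot judge a pairing. Order among clones under total-count scaling was an alternative chosen after seeing the data. Depth limits SLC16A3, ENO2, EPAS1, ADM and P4HA2, which had 10 to 61 counts in the CD21+ library.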
